A study of Mus musculus with 32 samples.

Results

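Innate RNA sensing in the cytosol was followed here through 6 genes: Ddx58, Ifih1 and Dhx58, which encode the helicases RIG-I, MDA5 and LGP2, Mavs, which encodes their shared adaptor, Zbp1, which encodes a sensor of Z-form nucleic acid, and Adar, which encodes the RNA editor ADAR1. They were chosen by name, with the gene identifiers of the tables matched to mouse GENCODE symbols and version numbers ignored, and are 6 of the 55487 gene identifiers measured. All 6 passed the filter on low counts that left 14869 genes for testing.

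RIG-I and MDA5 bind double-stranded or otherwise unusual RNA in the cytosol, RIG-I at RNA ends and MDA5 along long duplexes, and both then act on MAVS at the mitochondrial surface to start the production of type I interferon. LGP2 lacks the signalling domains of the other helicases and tunes their activity. ADAR1 converts adenosine to inosine in duplex RNA, which keeps the cell's own RNA from being sensed by MDA5, and ZBP1 recruits RIPK3 through RHIM motifs and can start necroptosis. Most of these genes are themselves known as interferon-induced genes, and promoters of such genes often hold an interferon-stimulated response element (ISRE) or a gamma-activated site (GAS).

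The cells were mouse fetal liver hematopoietic progenitors immortalised with ER-HOXB8, an estrogen-dependent fusion that holds cells at a progenitor stage, and all groups were grown with b-estradiol. The hi-77+/+ line carries both copies of the upstream Gata2 enhancer and is called wild-type below, and the hi-77-/- line lacks them and is called enhancer-deleted. Each line received vehicle, interferon gamma (IFNg, 1 ng/ml), the lipopeptide Pam3CSK4 (100 ng/ml), which activates Toll-like receptor 2 with its partner receptor TLR1, or both agents, each for 4 h, and the study asked how loss of GATA2 changes these responses. The 8 groups had 4 libraries each. Each genotype is a single line, and the labels do not say whether the 4 libraries came from separate cultures, so each p-value speaks to the spread among libraries, which may be technical.

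Library totals lay between 44182690 and 71424183 expected counts. Gata2 itself was at 43.4 ± 8.27 CPM (counts scaled to a common library size; SD, n = 4) in wild-type cells and 7.52 ± 0.679 CPM in enhancer-deleted cells with vehicle, which matches the labels. All 12 progenitor markers were at or above 1 CPM in every group, and the summed hepatocyte markers stayed at or below 0.304 CPM in every library. Other marker sums differed between the lines: 53.0 to 98.0 CPM against 1.12 to 2.46 CPM for 6 erythroid genes, 238 to 341 CPM against 47.9 to 70.5 CPM for 6 mast cell and basophil genes, and 34.9 to 45.9 CPM against 127 to 163 CPM for 7 B lymphoid genes, wild-type first. Their part in the differences between lines below was not tested. The summed 8 macrophage and dendritic markers, of which C1qa was at 0 in every group, were lower in enhancer-deleted cells under every treatment, without overlap. Wild-type first, they lay at 67.0 to 73.2 against 43.7 to 50.8 CPM with vehicle and 76.1 to 80.3 against 59.4 to 73.8 CPM with IFNg. With Pam3CSK4 they lay at 65.1 to 66.4 against 52.4 to 57.1 CPM, and with both agents at 88.9 to 98.9 against 65.2 to 73.5 CPM. The sum of 6 stromal and endothelial genes was 2.07 to 3.76 against 4.88 to 9.51 CPM. The part of these sums was not tested either. Libraries of some groups stood apart over all genes: the chi-square per degree of freedom between libraries reached 144.4 in enhancer-deleted combined, 139.4 in enhancer-deleted IFNg and 131.2 in wild-type vehicle, against at most 56.9 elsewhere. Enhancer-deleted combined libraries 1 and 2 (structural RNA share 18.906% and 18.821% of counts) differed from 3 and 4 (27.834% and 26.292%), enhancer-deleted IFNg library 4 was at 15.45% against 21.981% or more, and wild-type vehicle libraries 1 and 4 (25.833% and 28.783%) differed from 2 and 3 (19.381% and 21.853%). What is called the structural RNA share here counts all mitochondrial genes, protein-coding ones included, together with small non-coding RNA genes. In these bulk libraries fewer cells of a type and less RNA per cell cannot be told apart.

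The promoters of 4 of these genes are shown, as the RefSeq source used gave no window for Zbp1 or Dhx58. IFNg raised 3 of the 4 and left the fourth, Mavs, near its starting level. Each runs 5′ to 3′ from 250 bases before to 50 bases after a RefSeq start (GRCm38.p6), and capitals mark matches on either strand to the ISRE core GAAANNGAA or to the GAS core TTCNNNGAA. The Adar window is the downstream of 3 RefSeq starts.
Ddx58: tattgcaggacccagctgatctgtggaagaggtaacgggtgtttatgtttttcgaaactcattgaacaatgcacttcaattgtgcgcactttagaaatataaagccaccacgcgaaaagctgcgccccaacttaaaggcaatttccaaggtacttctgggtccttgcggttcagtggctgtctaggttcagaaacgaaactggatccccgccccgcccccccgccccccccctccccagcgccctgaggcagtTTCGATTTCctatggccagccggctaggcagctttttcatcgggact
Ifih1: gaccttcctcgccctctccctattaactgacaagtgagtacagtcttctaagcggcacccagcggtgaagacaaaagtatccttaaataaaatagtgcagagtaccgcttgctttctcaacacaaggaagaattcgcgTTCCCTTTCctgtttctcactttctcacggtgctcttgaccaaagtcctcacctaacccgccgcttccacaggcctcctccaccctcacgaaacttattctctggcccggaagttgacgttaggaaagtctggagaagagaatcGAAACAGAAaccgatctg
Adar: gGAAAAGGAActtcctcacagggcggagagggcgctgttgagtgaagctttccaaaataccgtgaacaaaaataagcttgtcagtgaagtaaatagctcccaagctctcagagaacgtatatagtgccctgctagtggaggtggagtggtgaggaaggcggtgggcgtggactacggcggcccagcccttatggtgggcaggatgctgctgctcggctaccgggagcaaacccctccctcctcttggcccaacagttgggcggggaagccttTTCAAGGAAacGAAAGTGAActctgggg
Mavs: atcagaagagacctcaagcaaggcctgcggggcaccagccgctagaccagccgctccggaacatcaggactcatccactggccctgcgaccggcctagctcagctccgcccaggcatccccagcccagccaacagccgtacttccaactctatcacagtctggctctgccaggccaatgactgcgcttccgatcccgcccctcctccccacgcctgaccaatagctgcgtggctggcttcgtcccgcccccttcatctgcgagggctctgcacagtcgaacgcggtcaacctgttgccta

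The Ddx58 window is chr4:40239776-40240075 on the minus strand, and its single ISRE core, TTCGATTTC on the reverse strand, begins at base 4 when the start is base 1. The Ifih1 window is chr2:62646206-62646505 on the minus strand and holds TTCCCTTTC from 112 bases before the start and GAAACAGAA from base 33. The Adar window is chr3:89730468-89730767 on the plus strand, with GAAAAGGAA from 249 bases before the start, the GAS core TTCAAGGAA from base 23 and GAAAGTGAA from base 34. The Mavs window, chr2:131233813-131234112 on the plus strand, and the windows of the other 2 Adar starts held neither core. An NF-kB motif and the GATA motif AGATAA were found in none of these 6 windows. Of 32851 mouse promoter windows of this length, 8.56% held the ISRE core, 8.298% the GAS core, 1.629% the NF-kB motif and 11.178% the GATA motif. These matches describe letters in the windows and not binding.

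Ddx58 (ENSMUSG00000040296.15, mm10 chr4:40203773-40239828, minus strand) encodes RIG-I. In wild-type cells with vehicle its 4 libraries read 4.89, 5.60, 5.63 and 5.17 CPM, and with IFNg they read 22.4, 23.5, 23.6 and 22.3 CPM. In enhancer-deleted cells vehicle gave 8.10, 8.29, 8.74 and 7.40 CPM and IFNg gave 24.6, 24.4, 25.5 and 26.1 CPM. The enhancer-deleted libraries lay above the wild-type ones without overlap both times, by a wider factor with vehicle than with IFNg. The log2 change with IFNg was 2.11 ± 0.06 (SE; 4.31-fold, adjusted p = 1.97e-24) in wild-type and 1.63 ± 0.06 (3.09-fold, adjusted p = 8.97e-22) in enhancer-deleted cells. The starting difference between lines was 0.61 ± 0.07 (1.52-fold, adjusted p = 1.45e-09), and after IFNg it was 0.13 ± 0.06 (adjusted p = 0.0571). On the log2 scale the response itself was smaller in enhancer-deleted cells by -0.48 ± 0.09 (adjusted p = 0.00143), a difference called for 1.65% of all genes tested and called downward for 0.820%. In mean CPM the gains were close, from 5.32 to 23.0 in wild-type and from 8.13 to 25.1 in enhancer-deleted cells. The difference between lines after IFNg did pass under 4 alternatives: with DESeq2 (0.15, adjusted p = 0.0278), RLE size factors (0.15, 0.0327), the groups of the contrast alone (0.13, 0.0164) and the structural RNA share in the fit (0.18, 0.0161).

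Ifih1 (ENSMUSG00000026896.14, mm10 chr2:62595798-62646255, minus strand) encodes MDA5. Wild-type libraries read 3.92, 3.76, 4.49 and 3.69 CPM with vehicle and 12.3, 13.2, 12.2 and 13.8 CPM with IFNg. Enhancer-deleted libraries read 3.98, 4.61, 4.29 and 4.62 CPM with vehicle and 13.1, 14.4, 14.2 and 13.2 CPM with IFNg. The lines overlapped before and after IFNg, and every IFNg library lay above every vehicle library. The rise was 1.69 ± 0.07 on the log2 scale in wild-type and 1.65 ± 0.07 in enhancer-deleted cells, and the difference of these responses, -0.05, had a 95% interval from -0.26 to 0.17. Between the lines with vehicle the log2 difference was 0.14 ± 0.08 (adjusted p = 0.153), which passed the test at 0.0410 without the third wild-type vehicle library.

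Dhx58 (ENSMUSG00000017830.15, mm10 chr11:100694884-100704271, minus strand) encodes LGP2 and was higher in enhancer-deleted cells with vehicle. Wild-type libraries with vehicle read 0.690, 0.877, 1.01 and 0.905 CPM, and enhancer-deleted libraries read 3.42, 4.02, 3.41 and 2.99 CPM. IFNg brought them to 2.93, 2.74, 3.44 and 3.46 CPM and to 9.90, 9.50, 9.31 and 10.4 CPM. Unstimulated enhancer-deleted cells thus held Dhx58 at about the level that wild-type cells reached with IFNg: these 2 groups, at 3.46 ± 0.423 and 3.15 ± 0.365 CPM, overlapped. The difference between lines was 1.98 ± 0.12 on the log2 scale with vehicle (3.94-fold, adjusted p = 3.45e-16) and 1.63 ± 0.10 with IFNg (3.09-fold, adjusted p = 3e-16). The rises with IFNg were 1.85 ± 0.12 and 1.50 ± 0.10, and their difference, -0.35 ± 0.16, did not pass the test (adjusted p = 0.300). The antisense gene Dhx58os overlaps its span, and its highest count in any library was 1, against 32 to 653 for Dhx58.

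**Figure D1:**
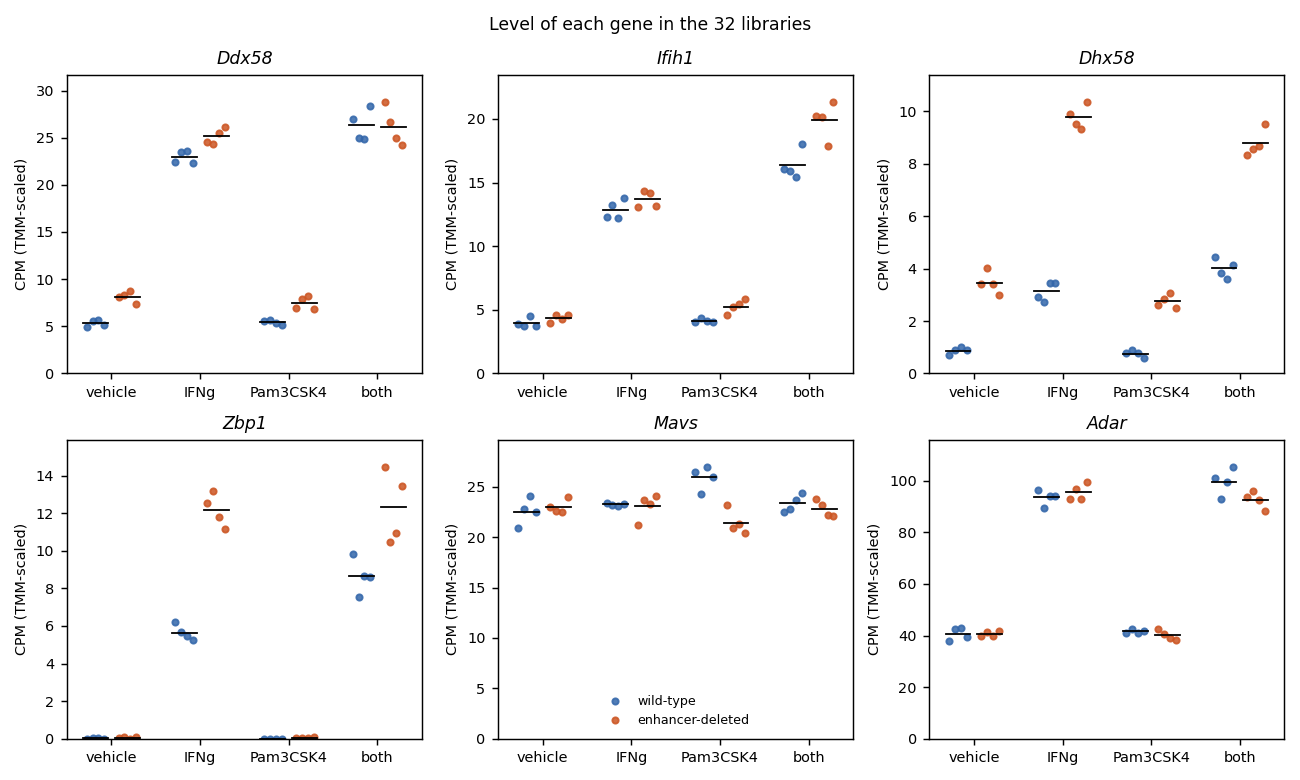
CPM (linear axis) of each gene in each of the 32 libraries, by treatment and line; points are libraries and bars are group means. Ddx58, Ifih1, Dhx58, Zbp1 and Adar rise wherever IFNg is present, Dhx58 is apart between the lines throughout, and Mavs stays between 20.4 and 27.0 CPM.

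Zbp1 (ENSMUSG00000027514.14, mm10 chr2:173206612-173218923, minus strand) went from near silence to a level above the helicase genes per length, though not above Ddx58 or Ifih1 in CPM. Without IFNg it was close to the limit of counting: wild-type vehicle libraries held 0, 2, 4 and 0 counts, and enhancer-deleted vehicle libraries held 1, 4, 0 and 5. With IFNg wild-type libraries read 6.20, 5.66, 5.47 and 5.24 CPM and enhancer-deleted libraries read 12.5, 13.2, 11.8 and 11.1 CPM, with no overlap between the lines. The summed counts gave a ratio of IFNg to vehicle of 199.6 in wild-type cells (95% counting interval 91.46 to 544.8) and 279.6 in enhancer-deleted cells (151.8 to 583.7). These intervals cover counting error only. The level under IFNg was 2.16-fold higher in the enhancer-deleted line (log2 1.11 ± 0.14, adjusted p = 1.06e-07), whereas with vehicle the ratio between lines was 1.548 with an interval from 0.5099 to 5.184, so a difference of this size was not detectable at that depth. The lines' responses differed by 0.51 ± 0.87 on the log2 scale (adjusted p = 0.877).

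Adar (ENSMUSG00000027951.16, mm10 chr3:89715022-89753446, plus strand) rose in both lines with IFNg. Wild-type libraries read 37.8, 42.4, 42.7 and 39.5 CPM with vehicle and 96.6, 89.4, 94.2 and 94.1 CPM with IFNg. Enhancer-deleted libraries read 39.7, 41.2, 40.0 and 41.8 CPM with vehicle and 92.7, 96.6, 93.1 and 99.5 CPM with IFNg. The log2 rise was 1.20 ± 0.04 (2.30-fold) in wild-type and 1.23 ± 0.04 (2.35-fold) in enhancer-deleted cells, and the difference of the responses had a 95% interval from -0.09 to 0.15. With vehicle the lines differed by 0.00 on the log2 scale, with a 95% interval from -0.08 to 0.09. Chrnb2 overlaps the Adar span on the other strand and held 5 to 42 counts per library.

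Mavs (ENSMUSG00000037523.13, mm10 chr2:131234063-131248025, plus strand), the adaptor below RIG-I and MDA5, was not called with IFNg in either line. Its vehicle libraries read 20.9, 22.7, 24.1 and 22.4 CPM in wild-type and 23.0, 22.6, 22.4 and 24.0 CPM in enhancer-deleted cells, and its IFNg libraries read 23.4, 23.2, 23.1 and 23.3 CPM and 21.2, 23.7, 23.3 and 24.1 CPM. All 4 of these groups overlapped. The 95% intervals of the log2 change with IFNg ran from -0.05 to 0.14 in wild-type and from -0.09 to 0.10 in enhancer-deleted cells.

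With IFNg, 5 of the 6 genes were called and all 5 rose, in wild-type cells, where 35.4% of all genes tested were called and 17.8% rose, and in enhancer-deleted cells, where 33.2% were called and 18.3% rose. The median log2 change of the 6 was 1.77 and 1.57, against -0.01 over all genes tested in each line. Between the lines with vehicle, 2 of the 6 were called, both up (Ddx58 and Dhx58), beside 53.7% of all genes called and 24.4% up, and with IFNg 2 were called, both up (Dhx58 and Zbp1), beside 53.1% and 25.7%, so the number called between the lines was no larger than that background.

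**Figure D2:**
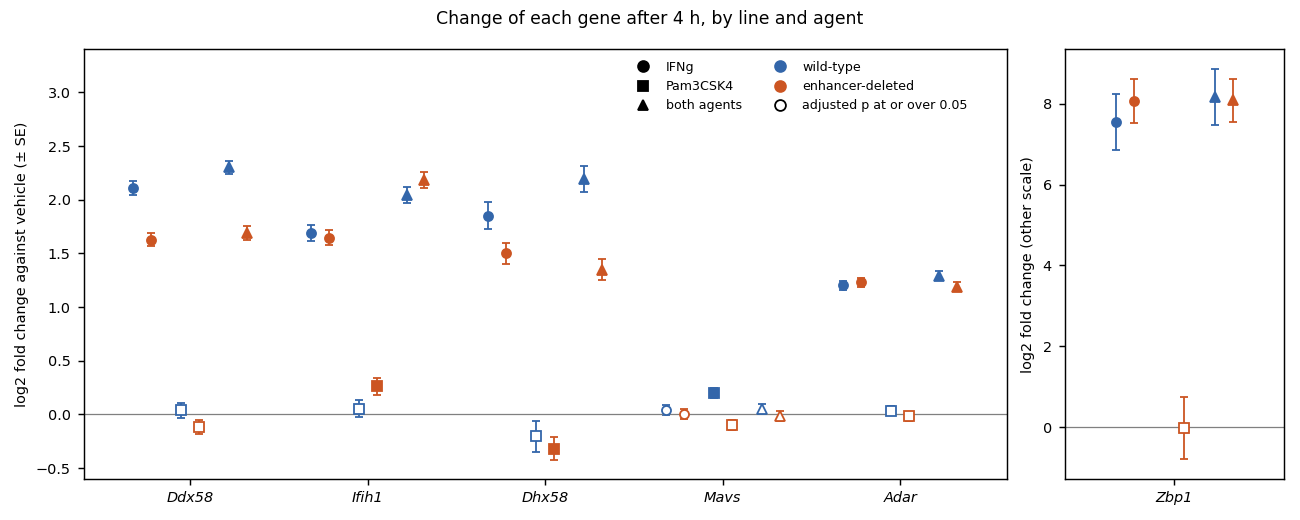
Log2 fold change against vehicle (± SE) of each gene after IFNg (circles), Pam3CSK4 (squares) or both (triangles), in wild-type (blue) and enhancer-deleted (orange) cells, with Zbp1 on its own scale; open symbols did not pass the test. Ddx58 rises by 2.11 in wild-type and 1.63 in enhancer-deleted cells with IFNg, and the squares lie near 0; wild-type Zbp1 with Pam3CSK4 had 0 counts and is not drawn.

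Pam3CSK4 alone moved these genes little. Ddx58 read 5.60, 5.72, 5.40 and 5.18 CPM in wild-type and 6.98, 7.88, 8.18 and 6.82 CPM in enhancer-deleted cells, and Adar read 41.1, 42.7, 40.9 and 41.6 CPM and 42.7, 40.6, 38.9 and 38.2 CPM, all overlapping their vehicle groups. Zbp1 held 0 counts in all 4 wild-type libraries, which allows a level of up to 0.0129 CPM over the group, and 1, 2, 1 and 5 counts in the enhancer-deleted ones. In wild-type cells 1 of the 6 genes was called, Mavs upward, beside 22.0% of all genes tested and 10.4% upward. In enhancer-deleted cells 2 were called, Ifih1 upward and Dhx58 downward, beside 24.3%, 11.5% upward and 12.8% downward.

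In enhancer-deleted cells with Pam3CSK4, Ifih1 read 4.56, 5.21, 5.42 and 5.82 CPM, a rise of 0.26 ± 0.08 on the log2 scale (adjusted p = 0.0115). Dhx58 read 2.61, 2.85, 3.09 and 2.48 CPM, a fall of 0.32 (log2 -0.32 ± 0.11, adjusted p = 0.0231). Both groups overlapped their vehicle libraries. Without the fourth Pam3CSK4 library neither was called (adjusted p = 0.0664 and 0.0867), Ifih1 was not called without the first vehicle library (0.0564), and Dhx58 was not called without the second vehicle library (0.112) or the first Pam3CSK4 library (0.0641). Neither response was shown to differ between the lines: the wild-type changes were 0.05 ± 0.08 and -0.21 ± 0.14, and the adjusted p of the difference was 0.177 for Ifih1 and 0.730 for Dhx58.

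Mavs was the 1 gene of the 6 whose Pam3CSK4 response was called as different between the lines. It read 26.5, 24.3, 27.0 and 26.0 CPM in wild-type cells, all above the wild-type vehicle libraries, and 23.2, 20.9, 21.3 and 20.4 CPM in enhancer-deleted cells. The wild-type change was 0.20 ± 0.05 on the log2 scale (1.15-fold, adjusted p = 0.00238), the enhancer-deleted change was -0.10 ± 0.05 (adjusted p = 0.125; -0.14 and 0.0308 without Pam3CSK4 library 1), and their difference was -0.30 ± 0.07 (adjusted p = 0.000952), beside 26.6% of all genes called for that difference and 12.3% called downward. The share of counts in structural RNA genes moved with this result: it was 24.0 ± 4.17% in wild-type vehicle, 14.8 ± 1.47% in wild-type Pam3CSK4, 25.8 ± 1.78% in enhancer-deleted vehicle and 27.3 ± 2.12% in enhancer-deleted Pam3CSK4 libraries. With that share in the fit the difference was -0.18 (adjusted p = 0.146) and the wild-type rise 0.10 (adjusted p = 0.628). The share did not overlap between wild-type vehicle (19.381 to 28.783%) and wild-type Pam3CSK4 libraries (13.587 to 16.894%). That fit therefore cannot tell the share from the treatment. The wild-type rise was also not called when vehicle libraries 1 and 4 were both left out (0.15, adjusted p = 0.0904).

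Under Pam3CSK4 5 of the 6 genes were called between the lines, 4 up and Mavs down, beside 65.6% of all genes tested, 32.1% up and 33.5% down. Dhx58 was higher in enhancer-deleted cells by 1.86 ± 0.13 on the log2 scale, with wild-type libraries at 0.786, 0.895, 0.764 and 0.582 CPM. Ddx58 was higher by 0.45 ± 0.07 and Ifih1 by 0.34 ± 0.08, where wild-type Ifih1 read 4.03, 4.33, 4.09 and 4.07 CPM. Mavs was lower by 0.27 (log2 -0.27 ± 0.05, adjusted p = 4.55e-06), and with the structural RNA share in the fit it was not called (-0.13, adjusted p = 0.122). The share did not overlap between the lines under Pam3CSK4, so that fit cannot tell the share from the line. Zbp1 rested on 9 counts against 0, a ratio of at least 3.293 when the wild-type group is set at 3 counts.

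Both agents together gave levels close to those of IFNg alone, with some additions. Ddx58 read 27.0, 25.0, 24.9 and 28.4 CPM in wild-type and 28.8, 26.6, 25.0 and 24.3 CPM in enhancer-deleted cells, so that the lines overlapped and differed by 0.00 (95% interval -0.12 to 0.11). Ifih1 read 16.1, 15.9, 15.4 and 18.0 CPM in wild-type and 20.3, 20.1, 17.9 and 21.3 CPM in enhancer-deleted cells. Dhx58 read 4.44, 3.84, 3.62 and 4.13 CPM against 8.35, 8.57, 8.68 and 9.51 CPM. Dhx58 was thus still apart between the lines and Ifih1 was mostly above in the enhancer-deleted line, by 0.28 ± 0.07 (adjusted p = 0.000462).

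Zbp1 with both agents read 9.84, 7.56, 8.67 and 8.59 CPM in wild-type and 14.5, 10.5, 10.9 and 13.5 CPM in enhancer-deleted cells, without overlap (log2 difference 0.51 ± 0.14, adjusted p = 0.00234). Adar read 101, 92.8, 99.6 and 105 CPM and 93.8, 96.0, 92.6 and 88.1 CPM, and Mavs read 22.5, 22.8, 23.7 and 24.4 CPM and 23.8, 23.2, 22.2 and 22.1 CPM. Of the 6 genes, 4 were called between the lines, 3 up and 1 down, beside 60.2% of all genes tested, 30.5% up and 29.7% down. Dhx58, Ifih1 and Zbp1 were higher in enhancer-deleted cells and Adar was lower by 0.10 (log2 -0.10 ± 0.04, adjusted p = 0.0258). The Adar call was lost without wild-type library 1 or 4 (adjusted p = 0.0583 and 0.123) or enhancer-deleted library 4 (0.106) or libraries 3 and 4 (0.123), and with the structural RNA share in the fit (-0.01, adjusted p = 0.844). That fit also left Zbp1 at 0.48 (adjusted p = 0.0572), and the share was 13.6 ± 0.612% in wild-type and 23.0 ± 4.78% in enhancer-deleted libraries with both agents. These 2 groups did not overlap in the share, so the fit cannot tell the share from the line.

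Against vehicle, both agents raised 5 of the 6 genes in wild-type cells, where 43.7% of all genes were called and 21.2% rose, and the same number in enhancer-deleted cells, where 43.8% were called and 23.7% rose. Mavs was the gene not called in each line. The log2 rise of Ddx58 was 2.30 ± 0.06 in wild-type and 1.69 ± 0.06 in enhancer-deleted cells, and that of Dhx58 was 2.19 ± 0.12 and 1.35 ± 0.10. In mean CPM Ddx58 went from 5.32 to 26.3 in wild-type and from 8.13 to 26.2 in enhancer-deleted cells. Dhx58 went from 0.870 to 4.01 and from 3.46 to 8.78 CPM, a larger gain in the enhancer-deleted line. On the log2 scale both responses were smaller in the enhancer-deleted line, by -0.61 ± 0.09 for Ddx58 (adjusted p = 5.25e-06) and -0.85 ± 0.16 for Dhx58 (adjusted p = 0.000215), beside 15.8% of all genes called for that difference and 6.99% called downward. Adar was also called for it without enhancer-deleted combined libraries 1 and 2 (-0.18, adjusted p = 0.0440). Against Pam3CSK4 alone, both agents gave 6 calls in wild-type cells, 5 up and Mavs down by 0.15 (log2 -0.15 ± 0.05, adjusted p = 0.0112), beside 30.1% of all genes, 16.3% up and 13.8% down, and 5 calls, all up, in enhancer-deleted cells, beside 28.9% and 17.5% up.

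**Figure D3:**
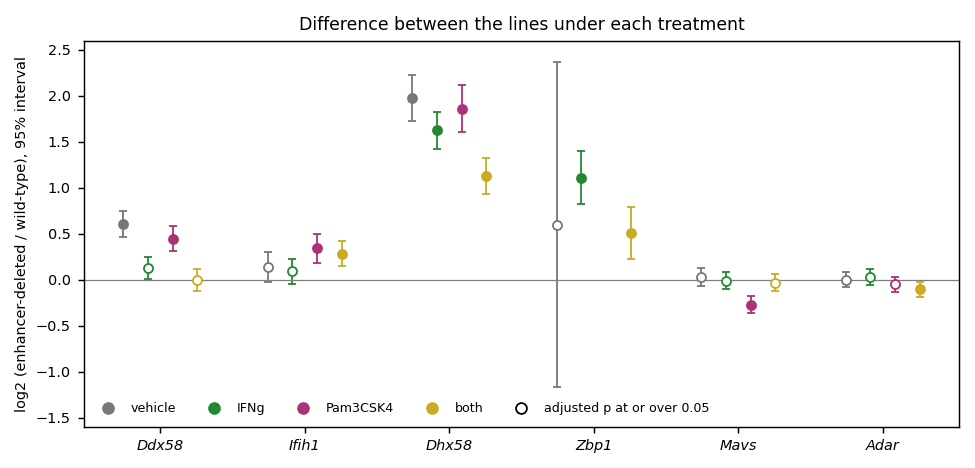
Log2 ratio of enhancer-deleted to wild-type level (points) with its 95% interval, for each gene under vehicle, IFNg, Pam3CSK4 and both; open points did not pass the test, and Zbp1 with Pam3CSK4 is not drawn because the wild-type group had 0 counts. Dhx58 lies above 0 under every treatment (1.98, 1.63, 1.86 and 1.13), and Ddx58 is at 0.61 with vehicle and at 0.13 with IFNg.

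Adding Pam3CSK4 to IFNg raised 4 of the 6 genes in wild-type cells, beside 6.81% of all genes called and 4.41% raised. Zbp1 rose by 0.62 ± 0.14 on the log2 scale (1.54-fold, adjusted p = 0.00583), Ifih1 by 0.35 ± 0.07 (adjusted p = 0.000811), Dhx58 by 0.34 ± 0.10 (adjusted p = 0.0357) and Ddx58 by 0.19 ± 0.06 (adjusted p = 0.0332). In each of these the combined libraries lay above the IFNg libraries without overlap. The Ddx58 call was lost without any single IFNg library or without combined library 1 or 4 (adjusted p from 0.0545 to 0.150), and the Dhx58 call without IFNg library 1 or 2 or combined library 1 or 4 (adjusted p from 0.0908 to 0.160).

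In enhancer-deleted cells the same addition raised 1 of the 6, Ifih1, by 0.54 ± 0.07 (1.45-fold, adjusted p = 1.43e-07), beside 17.1% of all genes called and 9.33% raised. Dhx58 changed there by -0.16 ± 0.09 (adjusted p = 0.291) and Zbp1 by 0.02 ± 0.14 (adjusted p = 0.952). A test of the difference between the lines, added after these values were seen, called Dhx58 (-0.50 ± 0.14, adjusted p = 0.0214) beside 7.47% of all genes and 3.44% downward, and left Zbp1 at -0.60 ± 0.20 (adjusted p = 0.0631) and Ifih1 at 0.19 ± 0.10 (adjusted p = 0.248). The Dhx58 call was lost without enhancer-deleted IFNg library 4, wild-type IFNg library 2 or wild-type combined library 1 (adjusted p from 0.0506 to 0.0685), and without enhancer-deleted combined libraries 1 and 2 (0.0600). Zbp1 did pass with DESeq2 (adjusted p = 0.00173) and with the groups of the contrast alone (0.00854). It also passed without enhancer-deleted combined library 1 (0.0282) or wild-type combined library 2 (0.0468).

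Whether the combined response departed from the sum of the single responses was tested in each line, and none of the 6 genes was called by edgeR, beside 0.592% of all genes in wild-type and 1.86% in enhancer-deleted cells. At an unadjusted p under 0.05 there were 4 in wild-type cells (Ifih1, Dhx58, Zbp1 and Mavs) and 2 in enhancer-deleted cells (Ddx58 and Ifih1), beside 19.0% and 11.7% of all genes at that threshold. DESeq2 called Zbp1 in wild-type cells (adjusted p = 0.0404), a value that rests on the group with 0 counts.

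Levels were compared between genes in TPM (a transcript abundance divided by length and scaled to the library's total). This was done only within a group, by means and ranges over its 4 libraries, as the structural RNA share differed between groups. Genes overlapped where these ranges did. With vehicle the order in wild-type cells was Mavs and Adar, which overlapped at 2.70 ± 0.590 and 2.64 ± 0.556 TPM, then Ddx58 at 0.468 ± 0.114, Ifih1 at 0.24 ± 0.0548, Dhx58 at 0.128 ± 0.0330 and Zbp1 at 0.015 ± 0.0191 TPM. Library by library Mavs was slightly above Adar there each time (2.18, 3.26, 3.16 and 2.20 against 2.14, 3.16, 3.08 and 2.18 TPM). In enhancer-deleted cells Dhx58, at 0.483 ± 0.0189 TPM, stood above Ifih1, at 0.255 ± 0.0311 TPM, without overlap. IFNg moved Zbp1 from the last place: it reached 4.13 ± 0.492 TPM in wild-type cells, overlapping Mavs at 4.18 ± 0.527 TPM, and 7.19 ± 0.882 TPM in enhancer-deleted cells, overlapping Adar at 7.73 ± 1.53 TPM. In single enhancer-deleted IFNg libraries Zbp1 was at or below Adar each time (6.50, 7.27, 6.59 and 8.41 against 6.63, 7.27, 7.02 and 9.99 TPM). Ddx58 was then at 2.99 ± 0.304 and 2.61 ± 0.578 TPM, and in both lines Zbp1 lay above Ddx58 and the other 2 helicase genes. That order rests on length, as most of Zbp1 was assigned to a 770-base transcript, shorter than those of the helicase genes. In mean CPM under IFNg, Zbp1 was at 5.64 in wild-type and 12.2 in enhancer-deleted cells. It lay below Ddx58 (23.0 and 25.1 CPM) and Ifih1 (12.9 and 13.7 CPM) and above Dhx58 (3.15 and 9.77 CPM). Pam3CSK4 alone left Zbp1 last, and the order of the helicase genes was that of vehicle in each line.

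**Figure D4:**
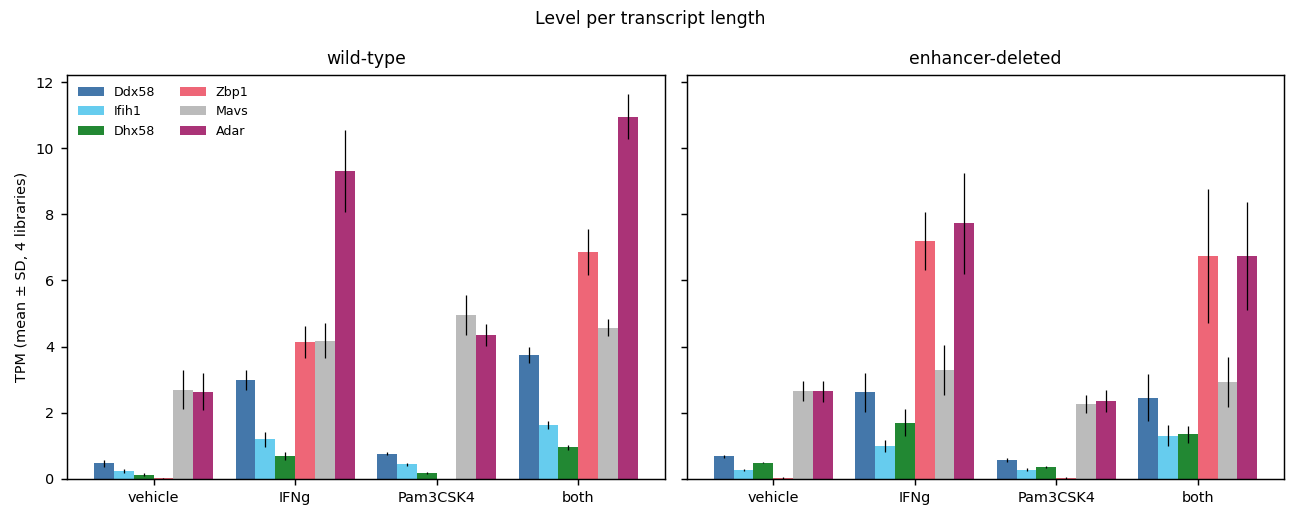
TPM (bars, mean; lines, SD of 4 libraries) of the 6 genes by treatment in wild-type (left) and enhancer-deleted (right) cells. Mavs and Adar lead with vehicle and Pam3CSK4, and Zbp1 reaches 4.13 TPM in wild-type and 7.19 TPM in enhancer-deleted cells with IFNg.

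The deposited tables also give the abundance-weighted transcript length of a gene, which moves when the mix of its transcripts does. Ddx58 and Dhx58 had 1 transcript each in these tables. For Ifih1, Mavs and Adar, which had at least 50 counts in every library, 21 comparisons were tested by exact permutation (two-sided, 4 against 4, smallest possible p 0.0286) a design in which at least 13 of the 21 would have to reach that p for any to pass adjustment, so the adjusted values say nothing about stability. The lowest Ifih1 value was in wild-type cells with Pam3CSK4, at 5067 ± 144 bases against 5470 in all vehicle libraries (exact p = 0.0286, adjusted 0.4286), without overlap, and the 5470-base transcript took 78.3 ± 7.78% and the 3616-base transcript the rest. Zbp1 under IFNg was mostly assigned to a 770-base transcript of 4 exons: the 1989-base transcript of 8 exons took 9.00 ± 1.23% in wild-type and 7.76 ± 0.931% in enhancer-deleted cells. The 5909-base Adar transcript from the upstream start and the 5871-base transcript from the downstream start differ too little in length to be told apart this way.

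The genes whose pattern over the 8 group means was most like each of these were ranked by Pearson correlation of log2 CPM among 9265 named genes, as a description of groups that share libraries. For Ddx58 they were Parp12 (0.9984), Slfn8 (0.996) and Irf9 (0.9955), for Ifih1 Sdad1 (0.9977), Pim1 (0.9975) and Nom1 (0.9957), and for Dhx58 the immunoproteasome genes Psmb9 (0.9945) and Psmb8 (0.9927) and the nucleotide kinase gene Cmpk2 (0.991). For Zbp1 they were 3 immunity-related GTPase genes, Igtp (0.9986), Tgtp2 (0.9972) and Irgm2 (0.9972). Adar was most like Eif2ak2 (0.9982), which encodes the double-stranded RNA kinase PKR, Gdap10 (0.996) and Sp100 (0.9956). Mavs had lower values, led by Snd1 (0.9203). Among the 6 themselves Ddx58 and Zbp1 correlated at 0.99, Adar and Zbp1 at 0.99, Dhx58 with the other 4 induced genes at 0.724 to 0.837, and Mavs with the others at -0.381 to 0.01.

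The interferon genes, the output of this pathway, were hardly seen. None of 18 type I and type III interferon genes passed the filter on low counts, and the 2 named here were chosen after their values were seen. The highest count in any library was 11 for Ifna1, in enhancer-deleted cells with both agents, and 2 for Ifnb1, which had no count in any wild-type library.

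A list of 18 signalling genes, all tested, covered mainly steps between MAVS and interferon, and also Tmem173 and Nlrx1, which lie outside those steps. Of the 18, IFNg raised 9 and lowered 4 in wild-type cells (median log2 change 0.08), beside 17.8% of all genes raised and 17.6% lowered. In enhancer-deleted cells it raised 8 and lowered 2 (0.09), beside 18.3% and 14.9%. With the structural RNA share in the fit 5 rose and 3 fell in wild-type cells. Irf7, the interferon regulatory factor that amplifies type I interferon production, rose from 0.854 ± 0.159 to 11.9 ± 0.847 CPM in wild-type (log2 3.79 ± 0.13) and from 1.55 ± 0.256 to 13.2 ± 0.905 CPM in enhancer-deleted cells (3.08 ± 0.11), a response smaller on the log2 scale by -0.71 ± 0.17 (adjusted p = 0.0241). Tmem173, which encodes the DNA-pathway adaptor STING, rose by 0.73 ± 0.04 in each line, and Tbk1, the kinase that both adaptors use, by 0.32 ± 0.04 and 0.29 ± 0.04. Nlrx1, a mitochondrial protein reported to restrain MAVS, fell by 0.46 (log2 -0.46 ± 0.09) and 0.42 (log2 -0.42 ± 0.10). With Pam3CSK4 alone 4 rose and 1 fell in wild-type cells, beside 10.4% and 11.7% of all genes (3 called without Pam3CSK4 library 4 or vehicle library 1, 2 without vehicle libraries 1 and 4, and 1 with the share), and 8 rose and 3 fell in enhancer-deleted cells, beside 11.5% and 12.8%. In the latter Ikbke, a kinase close to TBK1, rose by 1.88 ± 0.05 against 0.94 ± 0.05 in wild-type cells. Ikbke began lower in enhancer-deleted cells with vehicle (log2 -0.63 ± 0.06) and was higher there with Pam3CSK4 by 0.32 ± 0.05.

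Of 25 ubiquitin ligases, deubiquitinases and cofactors of the sensors, all tested, IFNg raised 9 and lowered 5 in wild-type cells and raised 10 and lowered 2 in enhancer-deleted cells, with a median log2 change of 0.05 in each line, beside 17.8% of all genes raised and 17.6% lowered in wild-type and 18.3% and 14.9% in enhancer-deleted cells. With the structural RNA share in the fit 7 rose and 1 fell in wild-type cells. Trim25, a ubiquitin ligase known for acting on RIG-I, rose by 0.83 ± 0.05 and 0.69 ± 0.05, and Zc3hav1, which encodes the antiviral protein ZAP, by 0.42 ± 0.03 and 0.56 ± 0.03. Of 20 other genes for proteins that bind or act on double-stranded or viral RNA, 17 were tested, and IFNg raised 10 and lowered 1 in wild-type and raised 11 and lowered 1 in enhancer-deleted cells (medians 0.32 and 0.38), beside the same shares of all genes. Oasl2, an oligoadenylate synthetase-like gene, rose by 5.83 ± 0.32 and 4.66 ± 0.24, and Oas2, which makes the activator of RNase L, by 4.84 ± 0.44 and 3.48 ± 0.24. Their highest group means were 11.8 and 2.39 CPM, so both rises began from vehicle levels near the floor of counting.

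Among 12 partners of ZBP1 in cell death, all tested, IFNg raised 7 and lowered 2 in each line (medians 0.25 and 0.23), beside 17.8% and 17.6% of all genes in wild-type and 18.3% and 14.9% in enhancer-deleted cells. Mlkl, the pore-forming protein of necroptosis, rose by 0.52 ± 0.04 and 0.65 ± 0.04, and Casp1 by 0.89 ± 0.10 and 0.77 ± 0.09. Ripk3, the kinase that ZBP1 binds, was higher in enhancer-deleted cells with vehicle (33.8 ± 0.0913 against 17.9 ± 0.665 CPM, log2 0.92 ± 0.04) and with IFNg (0.95 ± 0.04). With vehicle 6 of these 12 genes were higher and 3 lower in enhancer-deleted cells, beside 24.4% and 29.3% of all genes.

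Of 13 genes for interferon receptors and signal transducers, all tested, IFNg raised 7 and lowered 4 in wild-type and raised 6 and lowered 4 in enhancer-deleted cells (medians 0.16 and 0.10), beside 17.8% and 17.6% and 18.3% and 14.9% of all genes. The difference between the lines in the IFNg response was called for 8 of the 13, 2 up and 6 down, beside 0.827% and 0.820% of all genes. Irf9, which encodes an interferon regulatory factor, began higher in enhancer-deleted cells (0.47 ± 0.06) and rose less there on the log2 scale (2.14 ± 0.06 against 2.69 ± 0.06, difference -0.55 ± 0.08), as Ddx58 did. Irf1 rose by 4.96 ± 0.04 in wild-type and 4.45 ± 0.04 in enhancer-deleted cells (difference -0.51 ± 0.06).

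**Figure D5:**
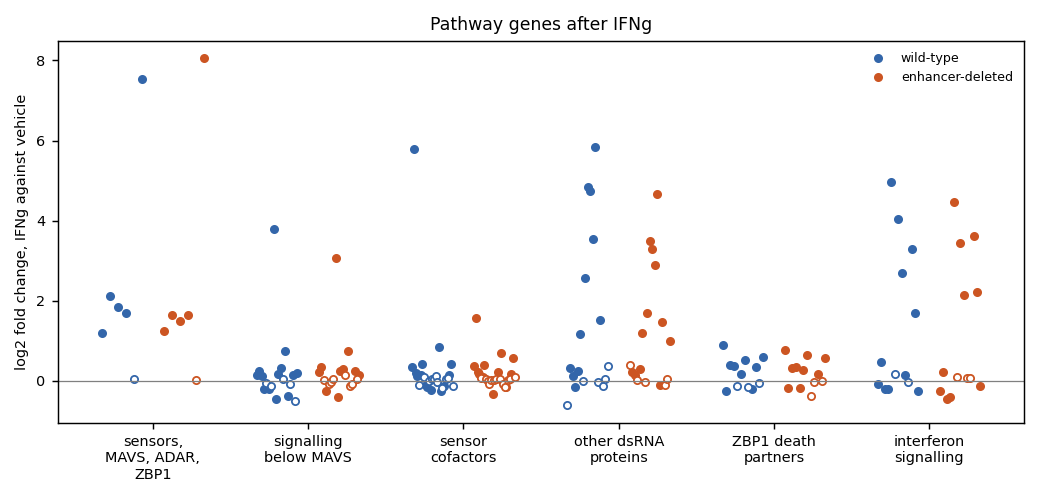
Log2 fold change with IFNg against vehicle for the 6 genes and for 5 lists of pathway genes, 1 point a gene, in wild-type (blue) and enhancer-deleted (orange) cells; filled points passed the test. Most signalling and cofactor genes lie near 0 (medians 0.08 and 0.05 in wild-type cells), with Irf7 at 3.79, while 5 of the 6 sensor-set genes lie at 1.20 or higher.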

How the data were processed

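RNA-seq of 32 libraries was analysed from the deposited gene tables, which hold expected counts, TPM, FPKM and transcript lengths per the file headers. The libraries kept strand and came from rRNA-depleted total RNA, per the labels' protocols. Per the submitters' processing notes, STAR 2.5.2b, RSEM 1.3.0 and mm10 were used. Annotation release and strand setting: not given in the sources used here. From the files, the authors' TPM and FPKM values were used for the order of levels within groups.

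Expected counts were rounded, since 11.07% of values above 0 had a fraction. Genes were filtered with filterByExpr, scaled by TMM and fitted with the quasi-likelihood test of edgeR 4.0.16 (R 4.3.3), with 1 mean for each of 8 groups over all 32 libraries. This left 14869 genes and 24 residual degrees of freedom. There were 20 contrasts, each adjusted by Benjamini-Hochberg over all genes tested, at 0.05; the last, the line difference in the effect of adding Pam3CSK4, was added after values were seen. Recovery was tested on simulated data. DESeq2 1.42.0, other scaling and filters, the contrast's groups alone, a replicate block, the structural RNA share as a covariate and libraries left out were the alternatives. The share covered 5187 genes: all mitochondrial genes, protein-coding ones included, and microRNA, small nuclear and nucleolar, 7S and RNase P and MRP RNA genes. It is thus not a measure of non-coding RNA alone. Leaving out pairs of enhancer-deleted combined libraries was chosen after seeing the data. Groups without counts were set at 3 counts. Symbols matched GENCODE vM21 for 55394 of 55487 identifiers. RefSeq (GRCm38.p6) gave promoters for Ddx58, Ifih1, Mavs and Adar; Zbp1 and Dhx58 are named only.

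The genes, the lists and the motifs were chosen with earlier results of these data known. Named genes are the 6, their 3 nearest in pattern among genes that reach 5 CPM in a group mean, Gata2 and a selection of up to 3 rises and 3 falls per list at 1 CPM or more; Dhx58os, Chrnb2, C1qa, Ifna1 and Ifnb1 are named outside this rule.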

Additional observations from a re-analysis of the deposited data

Results flagged for a closer look

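The difference between the 2 lines in a response passed its own test for 5 results, all negative, so the log2 change was lower in the enhancer-deleted line. For Ddx58 it was -0.4779 with IFNg and -0.6106 with both agents. For Dhx58 it was -0.8462 with both agents and -0.4968 for adding Pam3CSK4 to IFNg, the last of which was tested after the values were seen and was not called without enhancer-deleted IFNg library 4, wild-type IFNg library 2 or wild-type combined library 1 (adjusted p from 0.0506 to 0.0685), nor without enhancer-deleted combined libraries 1 and 2 (0.0600). For Mavs it was -0.3011 with Pam3CSK4, and this value is the 1 of the 5 that was not called with the structural RNA share in the fit (-0.18, adjusted p = 0.146). In wild-type cells the share did not overlap between vehicle and Pam3CSK4 libraries, so that fit cannot tell the share from the treatment. The Ddx58 and Dhx58 results share the vehicle or IFNg libraries of the same lines and are not independent of each other. Ddx58 and Dhx58 began higher in enhancer-deleted cells (1.52-fold and 3.94-fold with vehicle). In none of 47 groups of 4 libraries did Dixon's test set apart 1 library for any of the 6 genes, although libraries did stand apart over all genes; chance alone gives about 1 in 20, and wild-type Zbp1 with Pam3CSK4, at 0 counts throughout, could not be tested.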

How the results depend on the processing

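The 6 genes gave 120 values over 20 contrasts. All 120 kept their direction and side of the threshold without the low-count filter, 119 with RLE size factors, 118 with the groups of the contrast alone, 116 with DESeq2 and 114 with the structural RNA share in the fit. The share was at 19.381% or more in wild-type vehicle libraries and at 17.749% or less in every treated wild-type library. For those contrasts the fit with the share cannot tell it from the treatment. Leaving out 1 library kept 1220 of 1248 values. With a replicate block all 120 were kept, for example 5 called with IFNg in each line; same-numbered libraries correlated at a median of 0.007 (-0.67 to 0.70, 112 pairs), against 0.026 for other pairs, so the numbers were not taken as pairs.

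Counts of the 6 that moved were these. For the line difference in the Pam3CSK4 response (1 called), 2 without wild-type vehicle libraries 1 and 4 and 0 with the share; for the lines under both agents (4), 2 with the share; for wild-type Pam3CSK4 (1), 2 with DESeq2, 0 without vehicle libraries 1 and 4 and 0 with the share; for wild-type departure from additivity (0), 1 with DESeq2; for the line difference in adding Pam3CSK4 (1), 2 with DESeq2, 2 with its groups alone and 0 without enhancer-deleted combined libraries 1 and 2. Leaving out 1 library gave 0 to 2 for enhancer-deleted Pam3CSK4 (2 with all libraries), 1 to 2 for wild-type Pam3CSK4, 2 to 4 for adding Pam3CSK4 in wild-type cells, 0 to 1 for wild-type departure and 0 to 2 for the line difference in adding Pam3CSK4. The cause was not tested.

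With the share in the fit the sign turned for Dicer1 with Pam3CSK4 in wild-type cells (0.21 to -0.0050) and for Pycard: -0.20 to 0.028 with IFNg and -0.22 to 0.077 with both agents in wild-type cells, and 0.28 to -0.032 for the line difference with Pam3CSK4. Apart from leaving out 1 library, calls over all genes moved by more than 1.5 times in 18 cases, among them wild-type Pam3CSK4 (3277, and 724 without vehicle libraries 1 and 4, 1971 in its groups alone and 176, 157 of them up, with the share), wild-type IFNg (5265 and 2795 with the share), wild-type combined (6491 and 3638), the line difference with IFNg (245, 400 with DESeq2 and 128 in its groups alone), with Pam3CSK4 (3956, 2545 without vehicle libraries 1 and 4 and 1213 with the share) and with both agents (2347, 1380 with the share and 1466 without enhancer-deleted combined libraries 3 and 4), and departure from additivity in enhancer-deleted (276, 422 with the share and 519 without combined libraries 1 and 2) and wild-type cells (88, 501 with DESeq2, 22 without vehicle libraries 1 and 4, 172 unfiltered, 135 in its groups alone and 42 with the share). Of the list counts printed, 3 moved as much, all in wild-type cells: signalling genes (13 and 8 with the share) and cofactors (14 and 8) with IFNg, and signalling genes with Pam3CSK4 (5, 2 without vehicle libraries 1 and 4, and 1 with the share). Leaving out 1 library gave 2059 to 4105 calls for wild-type Pam3CSK4, 136 to 378 for the line difference with IFNg, 575 to 1174 for adding Pam3CSK4 in wild-type cells (1012 with all libraries) and 44 to 1158 for wild-type departure. With group means of FPKM in place of TPM, Adar and Mavs traded places in enhancer-deleted vehicle cells, as did Adar and Zbp1 with both agents. These pairs nearly tied in mean TPM (2.6525 and 2.655, and 6.73 and 6.735). Within a library the 2 units give the same order, so these swaps come from averaging over libraries. Depth limits Zbp1 without IFNg, at 0 to 5 counts per library.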
